A study of Mus musculus with 12 samples.

Results

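Ucp1, Ucp2, Ucp3, Ckb, Ckmt2, Gatm, Gamt, Slc6a8, Alpl and Atp2a2 encode the uncoupling proteins and the enzymes, transporter and pump of the creatine and calcium futile cycles, and they were taken by symbol as 10 of the 55573 genes in the count table. The cells were adipocytes made in culture from the stromal vascular fraction, the non-fat cells of subcutaneous fat, of mice with a C57BL/6 background (C57BL/6 J in the study's methods). The nuclear receptor PPARγ directs fat cell formation, and its threonine T166 was left as it is (WT), changed to alanine, which cannot be phosphorylated (T166A, here TA), or changed to aspartate, which mimics phosphorylation (T166D, here TD). All animals were homozygous, and the knock-in alleles were present in every cell of the mouse, so cells other than adipocytes in the cultures carried them too. Each genotype had 4 libraries. All cultures were induced for 4 days with 850 nM insulin, 1 nM triiodothyronine, 0.5 mM IBMX, 125 nM indomethacin and dexamethasone, kept in insulin and triiodothyronine afterwards, and harvested on day 8. Indomethacin is itself known to bind PPARγ, and no thiazolidinedione, the class of drugs used to activate it, is named in either medium. Nothing in the sources says whether the 4 libraries of a genotype came from separate mice or cultures, so p-values measure the spread between these libraries, which may be technical.

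Futile cycles spend energy as heat without net work. UCP1 does so by letting protons back across the inner mitochondrial membrane, bypassing ATP synthase, and is the classic protein of brown and beige fat. UCP2 and UCP3 are related carriers of the same membrane that are not thought to be major heat sources. In the creatine cycle, creatine is phosphorylated by creatine kinase and phosphocreatine is then hydrolysed, which uses ATP. GATM and GAMT make creatine, SLC6A8 takes it up, CKB and CKMT2 are kinases, and the phosphatase ALPL has been described as the hydrolase. In the calcium cycle, SERCA2, encoded by Atp2a2, pumps calcium into the endoplasmic reticulum against a leak through ryanodine or inositol trisphosphate receptors.

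Ucp2 and Ucp3 lie next to each other in the same orientation on chromosome 7 of GRCm38, with 6904 bases between the end of Ucp3 and the start of Ucp2. Their upstream sequences are shown because both genes were lower in TD than in TA, and only Ucp3 was called between TA and WT (whether the neighbours differ in this was not tested). PPARγ binds DNA with RXR at direct repeats of the motif AGGTCA with 1 base between the copies (DR1). Both strands of RefSeq promoter windows of 300 bases (GRCm38.p6, 250 before and 50 after each annotated start) were searched for AGGTCA and for DR1 with at most 2 mismatches. Capitals mark the matches, and the DR1 match of Ucp3 includes an AGGTCA. The first sequence is chr7:100472741-100472989 and the second chr7:100493108-100493336, both on the plus strand, and the last is chr13:91877082-91877114 on the minus strand, around the DR1 match of Ckmt2.
Ucp3 upstream: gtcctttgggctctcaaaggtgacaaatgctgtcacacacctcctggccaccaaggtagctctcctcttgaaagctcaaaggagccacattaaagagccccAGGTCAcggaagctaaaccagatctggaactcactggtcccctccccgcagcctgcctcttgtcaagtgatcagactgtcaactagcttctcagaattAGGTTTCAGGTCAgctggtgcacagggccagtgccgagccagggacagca
Ucp2 upstream: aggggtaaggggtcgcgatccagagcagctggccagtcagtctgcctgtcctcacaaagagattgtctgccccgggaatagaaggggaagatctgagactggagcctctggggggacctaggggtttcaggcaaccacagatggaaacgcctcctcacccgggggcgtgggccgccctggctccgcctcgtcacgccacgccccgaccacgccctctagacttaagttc
Ckmt2 DR1 match: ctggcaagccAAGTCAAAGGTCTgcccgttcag
The DR1 match of Ucp3 ran from base -51 to -39 and that of Ckmt2 from -219 to -207, counted from the annotated start. Of the 10 genes, 8 had a window, and Slc6a8 and Atp2a2 had none. DR1 with at most 2 mismatches was found in 2 of the 9 windows (Alpl has a pair), against 3.86% of all 32851 windows. AGGTCA was found in 4 of the 9, against 16.3% of all. The windows of Ucp2, Gamt and Ckb held neither. These matches describe letters, not binding sites.

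The 12 libraries held 16553324 to 20324286 counts each. Levels are given as counts per 1000000 counts of the library (CPM), with library sizes scaled by TMM factors, and calls are an adjusted p under 0.05 over the 15117 genes tested. Gene positions are those of GENCODE M21 on GRCm38. At this threshold 29.2% of all tested genes passed in the comparison of TD with WT, 15.1% with a higher level in TD and 14.2% with a lower one. TA compared with WT gave 11.1%, of which 6.72% had higher and 4.41% lower levels in TA. TD compared with TA gave 16.7%, made up of 7.33% above and 9.37% below. The adipocyte label was met by its markers: 8 of them, Adipoq and Fabp4 among them, summed to 19999 CPM in WT, 20516 in TA and 14312 in TD, and 7 of the 8 were lower in TD than in WT. In TD, 9 of 11 fibroblast and preadipocyte markers were higher than in WT, with sums of 14201 CPM in WT, 18942 in TA and 25941 in TD. All 5 endothelial markers were higher in TD than in WT and 3 of the 5 higher in TA, with sums of 34.9 CPM in WT, 61.4 in TA and 95.2 in TD. Of 6 smooth muscle and pericyte markers, 4 were higher and 1 lower in TD and 3 were higher in TA, with sums of 96.0, 155 and 129 CPM. Of 9 macrophage markers, 1 was higher in TD than in WT and 3 higher than in TA. Their sums averaged 523 CPM in WT (range 281 to 839), 334 in TA (140 to 609) and 732 in TD (647 to 901). Skeletal muscle markers also moved with genotype: their 20 genes summed to 16.6 to 37.0 CPM in WT, 40.8 to 123 in TA and 37.0 to 414 in TD. Of the 20, the myogenic factor genes Myod1, Myog and Myf5 had no read in WT, and every marker had reads in TA and TD. Of these, 17 of the 18 tested were higher in TD than in WT. Myog, with no read in WT, had enough counts for the test only through TA and TD libraries, so its call was partly fixed in advance. Libraries TD3 (414 CPM), TD4 (248) and TA2 (123) stood highest, and results are also given without these 3. TD2 followed close behind TA2 at 115 CPM and stayed in that fit, so it was not free of muscle markers. In RNA from whole cultures, fewer cells of a type and less RNA per cell cannot be told apart.

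Of the 10 genes, 7 had enough counts for the test. In TD against WT none was higher and 3 were lower (Ucp2, Ucp3 and Alpl), 3 of 7 beside the background of 29.2%. At an unadjusted p under 0.05, 1 of the 7 was higher (Slc6a8) by edgeR and none by DESeq2. In TA against WT 1 was higher (Ucp3) and 2 were lower (Gamt and Alpl), beside 11.1%. In TD against TA 2 were higher (Gamt and Slc6a8) and 2 were lower (Ucp2 and Ucp3), beside 16.7%. Ckb and Atp2a2 were not called in any of the 3 comparisons. The median log2 fold change of the 7 was -0.0040 for TD and -0.14 for TA when each was set against WT, and 0.15 for TD set against TA. Over all tested genes these medians were 0.011, -0.0056 and 0.023. With 7 genes these shares are counts only. TD and TA share the WT libraries as control, so the first 2 comparisons are not independent.

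**Figure D1:**
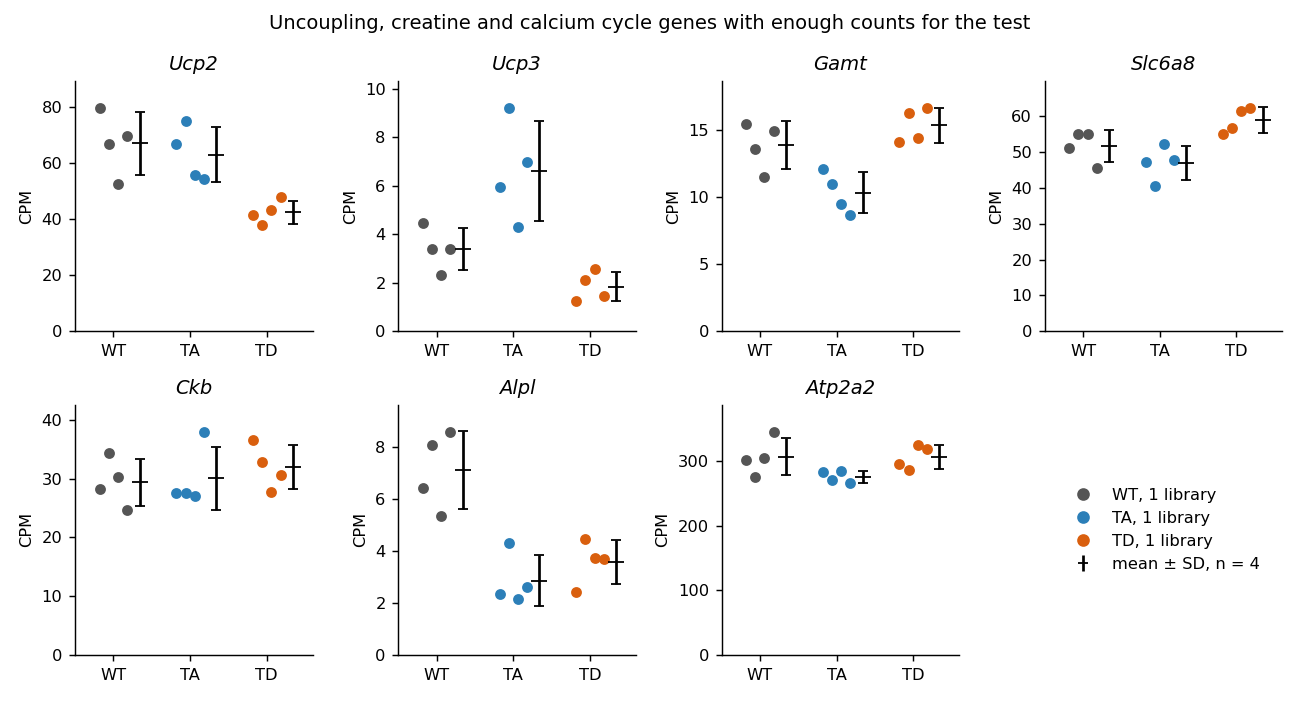
Levels in CPM (y axis, from 0) of the 7 tested genes in each of the 4 libraries of WT, TA and TD (points), with the mean and SD (black). The 4 TD libraries of Ucp2 lie at 37.8 to 47.7 CPM, below all others, Ucp3 is highest in TA and lowest in TD, and all WT libraries of Alpl lie above those of both mutants.

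Ucp1 (ENSMUSG00000031710, chr8:83290352-83298452), the heat-producing uncoupling protein, was close to absent in these adipocytes. WT1 to WT4 held 5, 0, 0 and 2 reads of it. TA1 to TA4 held 1, 0, 0 and 0, and TD1 to TD4 held 1, 0, 0 and 1. The totals were 7, 1 and 2 reads, and 3 reads in a library correspond to 0.149 to 0.184 CPM. Only WT1 passed that level, and the genotypes overlapped. The ratio of TD to WT was 0.309 (95% counting interval 0.0313 to 1.62) and that of TA to WT was 0.160 (0.00356 to 1.25), so neither a difference nor its absence was detectable at this depth. Two-sided exact permutation tests over libraries gave p = 0.543 for TD and 0.429 for TA, each against WT, and 0.714 between the mutants. The smallest p that 4 against 4 libraries allow is 0.0286. Counting intervals cover counting error only. The 9 brown and beige fat markers, Cidea and Dio2 among them, summed to 118 ± 22.8 CPM in WT, 117 ± 16.7 in TA and 53.3 ± 5.08 in TD (SD, n = 4). Cidea, with 72 reads in all libraries together, was too low to test. Of the 8 tested, 5 were lower in TD than in WT, beside 14.2% of all tested genes. The near-equal sums of WT and TA hold opposite changes. In TA against WT 2 were higher, beside 6.72% of all (log2 fold changes 0.52 for Ppargc1a and 0.61 for Elovl3). Another 2 were lower, beside 4.41% (-1.49 for Dio2 and -0.84 for Cox7a1).

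Ucp2 (ENSMUSG00000033685, chr7:100493337-100502020) was lower in TD than in both other genotypes. It measured 79.7, 66.9, 52.4 and 69.5 CPM in WT1 to WT4. The TA libraries gave 66.8, 75.1, 55.7 and 54.4 CPM, and the TD libraries 41.3, 37.8, 43.1 and 47.7. All 4 TD libraries lay below all 8 others, while WT and TA overlapped. The log2 fold change was -0.66 (SE 0.124, adjusted p = 0.00107) against WT and -0.57 (SE 0.125, adjusted p = 0.00582) against TA. TA against WT was -0.092, with a 95% interval from -0.352 to 0.168 (adjusted p = 0.705). Leaving out any single library kept both TD calls. Without TD3, TD4 and TA2, TD against TA was -0.58 with an adjusted p of 0.0608, and TD against WT stayed called. The exons of Ucp2 overlap those of the opposite-strand gene Dnajb13, which held 239 counts in all libraries together, against 12605 for Ucp2.

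Ucp3 (ENSMUSG00000032942, chr7:100472990-100486432), a carrier known mainly from skeletal muscle and brown fat, was highest in TA and lowest in TD. Its levels were 4.46, 3.38, 2.33 and 3.40 CPM in WT1 to WT4. They were 5.97, 9.22, 4.29 and 7.001 CPM in TA1 to TA4, and 1.25, 2.10, 2.55 and 1.47 CPM in TD1 to TD4. Every TD library lay below every TA library. TA3 lay below WT1, and TD3 lay above WT3. The log2 fold change between TD and TA was -1.83 (SE 0.277, 95% interval -2.42 to -1.25, adjusted p = 0.000376), a level in TD of 0.281 times that in TA, and it was called without any single library and without TD3, TD4 and TA2 together. TA was higher than WT by 0.96 (SE 0.261, adjusted p = 0.0249), and TD lower than WT by a log2 fold change of -0.87 (SE 0.283, adjusted p = 0.0292). Both comparisons with WT were close to the threshold. The TA call was lost without WT2, WT3, WT4, TA2 or TA4 (adjusted p 0.0501 to 0.0778), and the TD call without WT1, WT4, TD1 or TD4 (0.0548 to 0.105). Without TD3, TD4 and TA2 together the adjusted p was 0.0728 for TA against WT and 0.0611 for TD against WT.

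Ucp3 is also expressed in muscle, so its values are given beside the muscle markers. TA2, with 123 CPM of muscle markers, held the highest Ucp3 level of the 12 libraries (9.22 CPM). TA4, with 44.3 CPM of muscle markers, held the next highest, 7.001 CPM. TD3 and TD4, with 414 and 248 CPM of muscle markers, held 2.55 and 1.47 CPM of Ucp3. The part of muscle cells in the Ucp3 levels was not tested.

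The pair of carriers did not keep 1 ratio. Per length of annotated exons, Ucp3 stood at 11.1 per 100 Ucp2 in WT (range 9.90 to 12.5), 23.3 in TA (17.1 to 28.7) and 9.80 in TD (6.74 to 13.2). TA lay above both other genotypes in every library, and WT and TD overlapped. As shares of the summed level of Ucp1 to Ucp3, Ucp3 made up 9.96% ± 0.809 in WT, 18.7% ± 3.74 in TA and 8.84% ± 2.91 in TD (SD, n = 4). Ucp1 made up 0.456%, 0.0777% and 0.259%, from the few reads given above, and 0.269%, 0.0465% and 0.151% with the longest transcript as the length. These shares are descriptions, with no test.

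The fall of both carriers in TD ran beside lower adipocyte and respiratory chain genes. The 11 genes examined under this name ran from Ndufs1 of complex I to Atp5b of ATP synthase and included Cs, citrate synthase of the citric acid cycle. All 11 were lower in TD than in WT. Their median log2 fold change was -0.68, and 14.2% of all tested genes were lower in that comparison. Of the 11, 10 were lower in TD than in TA, beside 9.37% of all. None of the 11 was called between TA and WT (edgeR, 3 lower at an unadjusted p under 0.05), where 4.41% of all were lower. Per 1000 CPM of these 11 genes together, Ucp2 stood at 10.1 ± 1.21 in WT, 10.6 ± 1.18 in TA and 10.3 ± 1.73 in TD (SD, n = 4), so the genotypes overlapped on this scale. Per 1000 CPM of the 8 adipocyte markers it was 3.34 ± 0.424, 3.07 ± 0.386 and 2.99 ± 0.461. Ucp3 per 1000 CPM of the respiratory chain genes was 0.509 ± 0.104 in WT, 1.09 ± 0.197 in TA and 0.445 ± 0.153 in TD. On this scale TA1 to TA4 (0.861 to 1.33) still lay above every WT and TD library, and WT and TD overlapped. The part of these gene groups in the uncoupling protein results was not tested.

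**Figure D2:**
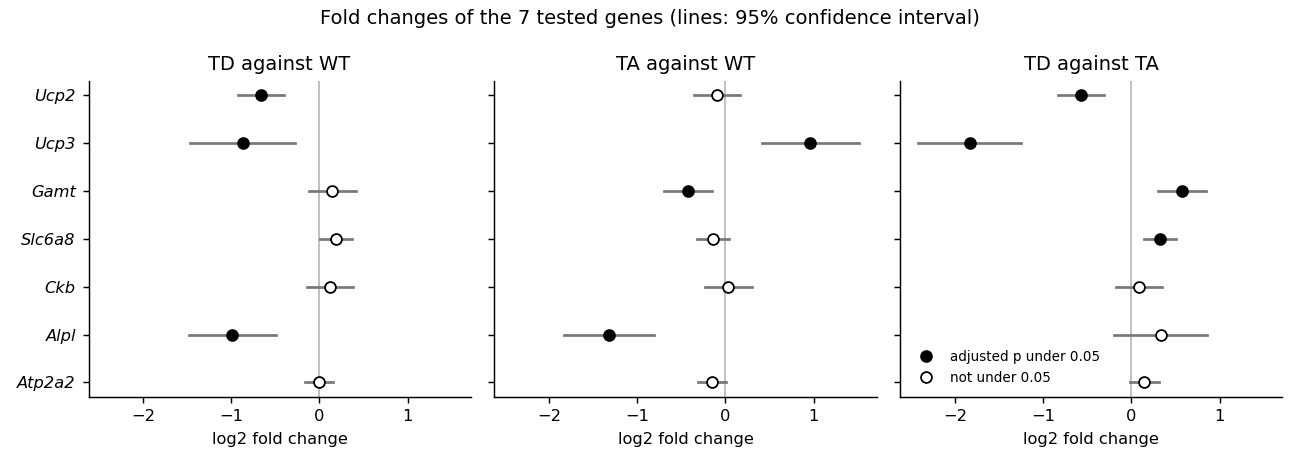
Log2 fold change (x axis) of the 7 tested genes (y axis) with 95% confidence intervals (lines), in 1 panel for each pair of genotypes, filled where the adjusted p is under 0.05. Ucp3 lies at 0.96 in TA against WT and at -1.83 in TD against TA, and Atp2a2 and Ckb lie near 0 in all 3 panels.

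In the creatine branch, the synthesis enzymes differed in level. Gatm (ENSMUSG00000027199, chr2:122594467-122611303), which makes guanidinoacetate in the first step, held 0, 1, 10 and 2 reads in WT1 to WT4. It held 0, 0, 0 and 6 in TA1 to TA4, and 0, 0, 0 and 1 in TD1 to TD4. WT3 gave 10 of the 13 WT reads, and TA4 gave all 6 of TA. The exact permutation p was 0.257 for TD against WT, 0.543 for TA against WT and 1.00 for TD against TA. The ratio of TD to WT was 0.0831 (95% counting interval 0.00196 to 0.554), with 1 read in TD. This interval covers counting error only, not the spread between libraries.

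Gamt (ENSMUSG00000020150, chr10:80258151-80261012), which methylates guanidinoacetate to creatine in the second step, was lower in TA than in the other genotypes. Its levels were 15.5, 13.6, 11.5 and 14.96 CPM in WT1 to WT4. They were 12.1, 11.01, 9.52 and 8.67 CPM in TA1 to TA4 and 14.1, 16.3, 14.4 and 16.7 CPM in TD1 to TD4. All TD libraries lay above all TA libraries, while WT3 fell within the TA range. TD against TA was 0.57 (SE 0.128, adjusted p = 0.00665) on the log2 scale, called without any single library but not without TD3, TD4 and TA2 together (0.59, adjusted p = 0.10). TA against WT was -0.43 (SE 0.128, adjusted p = 0.0410). That call was lost when only the genotypes compared were fitted (0.0818) and without any of WT1, WT2, WT4, TA3, TA4, TD2 or TD3 (0.0544 to 0.113). TD against WT was 0.15, with an interval from -0.119 to 0.412 (adjusted p = 0.412).

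Slc6a8 (ENSMUSG00000019558, chrX:73673150-73682502), the creatine transporter of the cell membrane, followed the same order with a smaller range. Its levels were 51.2, 55.1, 55.1 and 45.5 CPM in WT1 to WT4. They were 47.3, 40.6, 52.2 and 47.7 CPM in TA1 to TA4 and 55.1, 56.6, 61.6 and 62.4 CPM in TD1 to TD4. TD lay above TA in every library, and WT overlapped both. TD against TA was 0.33 on the log2 scale (SE 0.0868, adjusted p = 0.0169), a level 1.26 times as high. The call was lost without TA2, TD3 or TD4 (0.0566 to 0.0619), and without all 3 the difference was 0.19 (adjusted p = 0.463). TD against WT was 0.19 (SE 0.0862, adjusted p = 0.113) and TA against WT -0.14 (SE 0.0868, adjusted p = 0.346).

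Ckb (ENSMUSG00000001270, chr12:111669361-111672338), the cytosolic brain-type creatine kinase that is also made by thermogenic fat cells, was present at similar CPM in all genotypes. It measured 28.2, 34.3, 30.3 and 24.7 CPM in WT1 to WT4, 27.6, 27.5, 27.1 and 38.0 in TA1 to TA4, and 36.6, 32.8, 27.8 and 30.6 in TD1 to TD4. The groups overlapped, and TA4 stood apart from the other TA libraries. On the log2 scale TD against WT was 0.12 (95% interval -0.145 to 0.383, adjusted p = 0.514). TA against WT was 0.032 (-0.233 to 0.297, adjusted p = 0.914) and turned negative without WT4 (-0.042) or TA4 (-0.11). TD against TA was 0.087 (-0.178 to 0.352, adjusted p = 0.681). Per 1000 CPM of the 8 adipocyte markers, Ckb stood at 1.48 in WT, 1.47 in TA and 2.23 in TD (means, n = 4). On that scale, whose marker sum was itself lower in TD, every TD library lay above every WT and TA library. The same held per 1000 CPM of the respiratory chain genes. Gamt, Slc6a8 and Atp2a2 were separated in the same way on both scales, so this is not particular to Ckb. These scales are descriptions, with no test.

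Ckmt2 (ENSMUSG00000021622, chr13:91853387-91876885), the mitochondrial creatine kinase of skeletal and heart muscle, was almost unread in WT and had more reads in TD. The counts were 1, 0, 0 and 0 in WT1 to WT4, 0, 11, 1 and 1 in TA1 to TA4, and 2, 7, 27 and 7 in TD1 to TD4. Every TD library exceeded every WT library, and TA2 exceeded 3 of the TD libraries. The ratio of the 43 reads of TD to the 1 of WT was 46.5 (95% counting interval 7.91 to 1878), and that of the 13 of TA to WT was 14.6 (2.19 to 620). These intervals cover counting error only, not the spread between libraries, and TD3 gave 27 of the 43 reads. The exact permutation p for TD against WT was 0.0286, the smallest possible, and 0.257 after adjustment over the 9 tests of the 3 low genes. For TA against WT it was 0.143 and for TD against TA 0.286. TD3 and TA2, the libraries highest in Ckmt2, were also the highest of their genotypes in muscle markers, and TD1, with 37.0 CPM of muscle markers, held 2 reads. The muscle creatine kinase Ckm, of the same pathway, gave 5, 0, 0 and 0 reads in WT, 3, 18, 2 and 1 in TA and 0, 21, 44 and 22 in TD. The part of muscle cells in these counts was not tested.

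**Figure D3:**
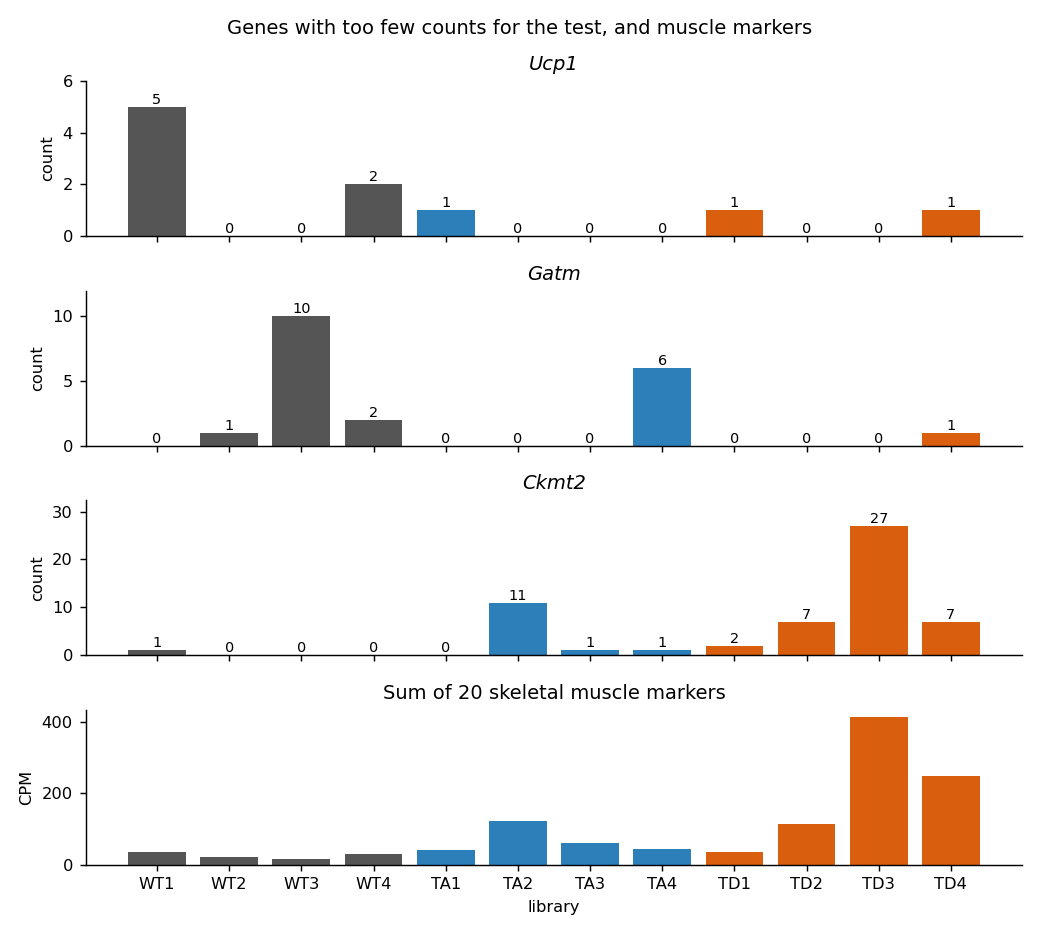
Read counts (y axis, printed over each bar) of Ucp1, Gatm and Ckmt2 in each of the 12 libraries (x axis), and the summed CPM of 20 skeletal muscle markers in the same libraries (bottom panel). Ckmt2 reaches 27 reads in TD3 and 11 in TA2, where the muscle markers are at 414 and 123 CPM.

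Per length of exons, Ckb made up nearly all of the creatine kinase level (Ckb, Ckm, Ckmt1 and Ckmt2). Its share was 99.7% ± 0.628 in WT, 97.3% ± 3.92 in TA and 93.0% ± 6.25 in TD (SD, n = 4). The lowest shares were 84.4% in TD3 and 91.5% in TA2, and TD1 stood at 99.4%. In TD, Ckm made up 3.56% and Ckmt2 3.42%.

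Alpl (ENSMUSG00000028766, chr4:137741733-137796384), tissue-nonspecific alkaline phosphatase, was lower in both mutants. It measured 6.43, 8.09, 5.35 and 8.60 CPM in WT1 to WT4. It measured 2.34, 4.30, 2.171 and 2.61 CPM in TA1 to TA4 and 2.44, 4.47, 3.73 and 3.69 CPM in TD1 to TD4. Both mutant groups lay wholly below WT and overlapped each other. The log2 fold change was -1.32 (SE 0.241, adjusted p = 0.00187) for TA, 0.401 times the WT level, and -0.99 (SE 0.235, adjusted p = 0.00518) for TD, 0.505 times. Both calls held without any single library and without TD3, TD4 and TA2 together (adjusted p = 0.000728 and 0.0244). TD against TA was 0.33, with an interval from -0.193 to 0.859 (adjusted p = 0.387). Per 1000 CPM of the 8 adipocyte markers, Alpl stood at 0.356 ± 0.0718 in WT, 0.137 ± 0.0345 in TA and 0.251 ± 0.0607 in TD (SD, n = 4). On that scale TA stayed below WT in every library, while TD and WT overlapped.

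Atp2a2 (ENSMUSG00000029467, chr5:122453513-122502225), the calcium pump SERCA2, was the most abundant of the 10 and differed little in CPM. Its levels were 302, 275, 305 and 346 CPM in WT1 to WT4. They were 283, 271, 285 and 266 CPM in TA1 to TA4 and 295, 287, 324 and 318 CPM in TD1 to TD4. TD lay just above TA in every library, and WT overlapped both. TD against WT was -0.0040 on the log2 scale (95% interval -0.166 to 0.158, adjusted p = 0.977). TA against WT was -0.15 (-0.315 to 0.00906, adjusted p = 0.228) and TD against TA 0.15 (-0.0131 to 0.311, adjusted p = 0.198). With library totals alone in place of TMM factors, TD against TA was 0.23 and called (adjusted p = 0.0403), a scaling that also moved the median of all genes from 0.023 to 0.10. Per 1000 CPM of the 8 adipocyte markers, Atp2a2 stood at 15.3 in WT, 13.6 in TA and 21.5 in TD (means, n = 4). On that scale, whose marker sum was lower in TD, every TD library lay above every WT and TA library. This was also so for Ckb, Gamt and Slc6a8. The same held per 1000 CPM of the respiratory chain genes.

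Of the SERCA genes per length, Atp2a2 made up 95.7% ± 0.812 in WT, 94.4% ± 2.63 in TA and 87.3% ± 8.73 in TD (SD, n = 4), lowest in TD3 at 76.7% and highest in TD1 at 97.3%. Atp2a1, the pump of fast muscle, made up 0.512%, 2.93% and 11.2%, and Atp2a3 3.77%, 2.72% and 1.47%. Exons of Atp2a1 overlap those of Rabep2 on the other strand, which had 4645 counts against its 2214, so its level is uncertain.

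**Figure D4:**
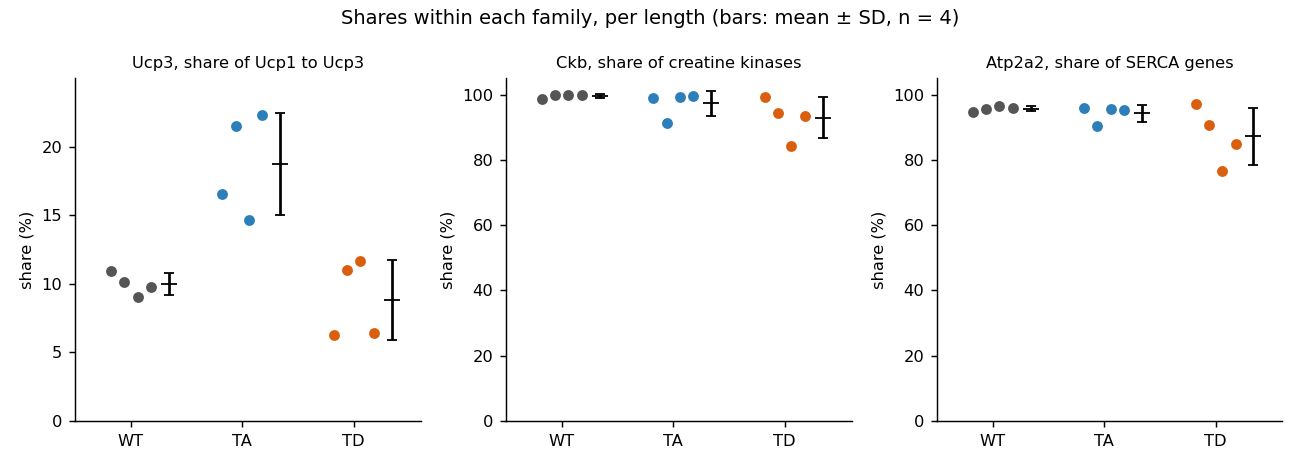
Share in percent (y axis, from 0) of Ucp3 among Ucp1 to Ucp3, of Ckb among the creatine kinases and of Atp2a2 among the SERCA genes, per length of exons, in each library (points) with mean and SD. The Ucp3 share is 14.6% to 22.3% in TA and at most 11.7% elsewhere, and TD3 has the lowest share of both Ckb (84.4%) and Atp2a2 (76.7%).

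Levels between genes can be set side by side only per length. In CPM per kilobase of exons (RPKM), the WT means were 50.5 for Atp2a2, 10.1 for Ckb, 9.92 for Slc6a8, 9.61 for Gamt and 9.60 for Ucp2. Alpl followed at 1.77 and Ucp3 at 1.08, and Ucp1 (0.0564), Gatm (0.0545) and Ckmt2 (0.00873) were near 0. Atp2a2 lay above all others in every library. The 4 genes near 10 did not differ beyond their spread, and their order depends on the length used: with the longest transcript in place of the union of exons, Ucp2 stood at 16.8, Gamt at 14.1, Slc6a8 at 13.04 and Ckb at 10.4. Ucp2 has 11 annotated transcripts whose exons join to 6989 bases, against 3988 for the longest.

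The rest of the pathway was read from a list of 26 genes of mitochondrial carriers, creatine kinases and calcium handling, of which 18 were tested. In TD against WT 8 were higher and 5 lower, 13 of 18 beside the background of 29.2%, with a median log2 fold change of 0.13 against 0.011 over all genes. In TA against WT 2 were higher and none lower by edgeR, beside 11.1%, and DESeq2 called 4 of the list (3 higher, 1 lower). At an unadjusted p under 0.05 both tools gave 8 higher and 2 lower in that comparison. In TD against TA 3 were higher and 3 lower, beside 16.7%. The higher genes of TD against WT were largely those of muscle: Casq2 by 4.95, Ryr1 by 4.81, Atp2a1 by 4.71, Casq1 by 4.22 and Ckm by 4.08 on the log2 scale. Casq1 and Casq2 bind calcium in the muscle reticulum, and Ryr1 releases it. Each of these 5 was highest in TD3, the library highest in muscle markers, and each had fewer reads in TD1 than in TD2, TD3 or TD4. Summed over the WT libraries, Casq2, Ryr1, Casq1 and Ckm held 9, 10, 20 and 5 reads. These genes had enough counts for the test only through TA and TD libraries. Their calls as higher were thus partly fixed by the count filter, and 13 of 18 is not a fair contrast with 29.2%. Sarcolipin (Sln), a small SERCA inhibitor that was too low to test, held no reads in WT, 2 in TA and 28 in TD, of which TD3 and TD4 gave 13 and 14.

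Outside the muscle genes, Itpr3, an inositol trisphosphate receptor, was higher in TD than in WT by 0.81 (adjusted p = 0.00188), and Itpr2 was lower at -0.26 (adjusted p = 0.0370). Atp2a3, another SERCA gene, was lower in TD at 4.38 ± 0.690 CPM, against 10.4 ± 1.30 in WT and 6.90 ± 2.49 in TA (SD, n = 4). Its log2 fold change in TD was -1.25 against WT (adjusted p = 0.000550) and -0.65 against TA (adjusted p = 0.0493). The store-operated channel gene Orai1 was lower at -0.34 in TD against WT (adjusted p = 0.0482), and its sensor Stim1 (0.027), the mitochondrial uniporter Mcu (-0.11) and the reticulum protein gene Calr (0.077) were not called.

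Of the carriers related to the uncoupling proteins, Slc25a27 (0.90, adjusted p = 0.0161) and Slc25a30 (0.47, adjusted p = 0.00436) were higher in TD than in WT, in the direction opposite to Ucp2 and Ucp3. Slc25a30 was also higher in TA than in WT (0.43, adjusted p = 0.0172). Slc25a14 was not called (0.18 in TD against WT, adjusted p = 0.534). Both abundant ADP/ATP carriers, which can also leak protons, were lower in TD than in WT: Slc25a4 at -0.26 (adjusted p = 0.0149) and Slc25a5 at -0.29 (adjusted p = 0.00782). Slc25a5 was also lower in TD than in TA (-0.45, adjusted p = 0.000924).

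Without TD3, TD4 and TA2 the called genes of this list fell to 7 in TD against WT and to 0 in TD against TA (edgeR, with 2 lower and none higher at an unadjusted p under 0.05). That fit held 2 TD and 3 TA libraries. The share of all tested genes called in it is not given here, so the fall cannot be read as particular to this list. In TD against TA the count of 6 fell to 2 without TA1 or TD3 and to 3 without TA4 or TD4. In TA against WT the count of 2 went to 0 without WT4 (edgeR, 6 higher and 2 lower at an unadjusted p under 0.05), to 1 without WT1, WT3 or TA1, to 4 without TD1 and to 5 without TA2.

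**Figure D5:**
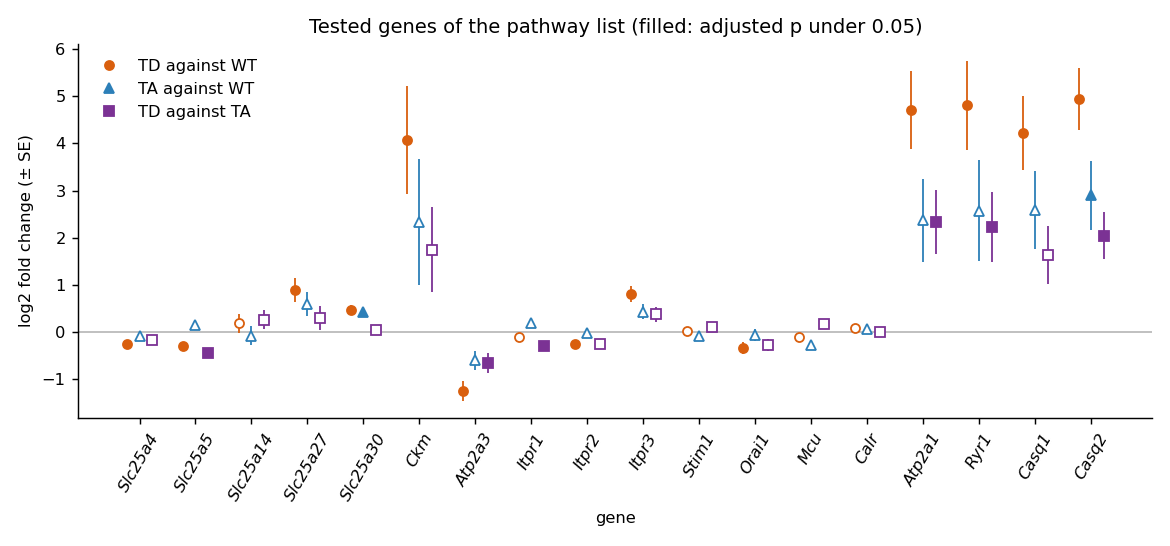
Log2 fold change with its SE (y axis) of the 18 tested genes of the pathway list (x axis) for each pair of genotypes, filled where the adjusted p is under 0.05. In TD against WT Ckm, Atp2a1, Ryr1, Casq1 and Casq2 lie above 4, while Atp2a3 lies at -1.25 and the other 12 lie between -0.34 and 0.90.

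Among the 10549 genes averaging 5 CPM or more, those whose log2 level was most like each tested gene over the 12 libraries were found by Pearson's r. They were Ube2v1 (0.941) and Llgl2 (0.933) for Ucp2, and Pex11a and Slc25a3 (both 0.957) for Ucp3. Pex11a belongs to peroxisome division and Slc25a3 is the mitochondrial phosphate carrier. For Gamt they were Jup (0.935) and Tle1 (0.902), for Slc6a8 Vat1 (0.965) and Sdc3 (0.963), and for Alpl Pkp2 and Nat10 (both 0.943). Atp2a2 was most like Extl3 (0.923) and Ehmt1 (0.920), and Ckb most like Smarcd1 (0.854) and Hyi (0.840), the lowest of these values. These are the highest of many correlations over libraries that share genotype and depth, so they describe a pattern only.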

How the data were processed

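Poly-A or other selection and strand settings are not given in the sources used here. Per the labels, the submitters' processing notes name bcl2fastq 2.17.1.14, cutadapt 1.9.1, HISAT2 2.0.1, HTSeq 0.6.1 and GRCm38, and the authors deposited raw read counts per gene as 12 single-library files and 1 matrix, which held equal values. Unit and tests fit whole counts, and no gene-level normalization had been applied. Samples were grouped by the labelled genotype, 4 libraries each.

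Genes were tested with edgeR 4.0.16 (R 4.3.3, quasi-likelihood, TMM factors, all 12 libraries in 1 fit, filterByExpr with a count minimum of 10 and a total of 15, Benjamini-Hochberg over 15117 genes). SEs are the log2 fold change divided by the root of the F value. Genes under the filter were compared by their counts and by two-sided exact permutation tests of CPM. RPKM used the exon union of GENCODE M21. The script was tested on simulated data. Every pair of replicates differed by more than sampling noise, so none was merged.

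The 10 genes, the pathway list and the marker lists were chosen with earlier results of these data known. Named genes were the 10, the tested pathway genes, and for each tested gene the 2 genes most like it by Pearson's r. The levels per 1000 CPM of marker genes and the fit without 3 libraries were chosen after seeing the data. Alternatives were other scalings, filters, DESeq2 1.42.0, only the genotypes compared, a replicate block, a fold threshold and leaving out each library. Protein sequences are not analysed here.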

Additional observations from a re-analysis of the deposited data

Results flagged for a closer look

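Among the 21 sets of 4 libraries examined (7 tested genes in 3 genotypes), 1 held a library far from the rest: Ckb in TA, where TA4 stood at 38.0 CPM and the other 3 libraries between 27.1 and 27.6. The gap was 0.949 of the range of the 4 values. The threshold used for sets of 4 (Dixon's test) is passed by chance in about 1 of 20 sets, and this gap lies above it.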

How the results depend on the processing

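For the 10 genes, the counts of calls stayed within 1.5 times of the main count under every alternative except in TA against WT, where leaving out a single library gave 1 to 3 in place of 3, and except without TD3, TD4 and TA2 (the libraries highest in muscle markers, left out after seeing the data), which gave 1 in place of 3 in TA against WT and 1 in place of 4 in TD against TA. For the pathway list, TD against WT gave 13 calls, but 7 with at least 10 counts in every library, 8 with an absolute log2 fold change above 0.5 and 7 without TD3, TD4 and TA2. TA against WT gave 2 calls, but 4 with DESeq2, 8 with no filter on low counts, 1 with at least 10 counts in every library, 4 with only the genotypes compared, 1 with a fold change above 0.5, and 0 to 5 when single libraries were left out. TD against TA gave 6 calls, but 10 with no filter, 3 with at least 10 counts in every library, 2 to 6 when single libraries were left out, and 0 without TD3, TD4 and TA2. The stricter count minimum leaves out Ckm and other genes near 0 in WT. For the other changes the cause was not tested. The shares of all genes called under these alternatives are not given here, so the changes in count cannot be read as particular to the 10 genes or the pathway list. Differences near 0 changed sign: Ckb in TA against WT ranged from -0.11 to 0.11 when single libraries were left out, and Atp2a2 in TD against WT from -0.055 to 0.056, with 0.065 under library totals alone, 0.018 with upper-quartile factors, 0.0099 with at least 10 counts in every library and 0.0019 with only the genotypes compared. Library totals alone moved the share of higher genes among all calls from 51.5% to 64.6% in TD against WT and from 43.9% to 64.7% in TD against TA. Equal replicate numbers did not pair the libraries: of 12 correlations of same-numbered libraries, 2 exceeded 0.1 (range -0.237 to 0.196), and 2 of 12 libraries correlated best with their own number. A replicate block moved the pathway count from 2 to 4 in TA against WT and from 6 to 4 in TD against TA, and changed no call of the 10 genes. At this depth 3 reads in a library equal 0.149 to 0.184 CPM, and most libraries lay at or below that for Ucp1, Gatm and Ckmt2.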
